A study of Mus musculus with 2 samples.

Results

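Krüppel-like factor (KLF) genes were described in E13.5 mouse embryonic ureters that did or did not misexpress the T-box gene Tbx2. The 10 genes were Klf2, Klf3, Klf4, Klf5, Klf6, Klf7, Klf9, Klf10, Klf13 and Klf15, found by the gene name of their array probes. They had 12 probes of the 39429 on the array, and 11 of these passed the filter on dim probes, so that each of the 10 genes was among the 21097 genes tested. The genes were chosen with the result of this comparison known, Klf4 for its lower level. Their values are therefore given as a description, with no test.

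Both genotypes were male embryos of the NMRI stock and had Tbx2 inserted at Hprt on their X chromosome, Hprt(Tbx2/Y). Tbx2-GOF embryos also carried cre at 1 Tbx18 allele, Tbx18(cre/+), and control embryos were Tbx18(+/+). Tbx18 is active in the mesenchyme around the ureteric epithelium, so a whole ureter holds many cells that the cre allele does not mark, and the Tbx2-GOF embryos had 1 intact Tbx18 allele fewer than the controls. There were 2 arrays, and on each 1 extract of each genotype was hybridised with opposite dyes. Tbx2-GOF was labelled with AlexaFluor647 (red) on array 1 and with AlexaFluor555 (green) on array 2. The sources used here do not say how many embryos made up an extract or whether the extracts of the 2 arrays were separate, so the spread between arrays may be technical.

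KLF proteins bind GC-rich and CACCC sequences through zinc fingers at their C-terminal end, and family members compete for the same sites. KLF2, KLF4, KLF5, KLF6 and KLF7 are mostly activators, KLF3 represses through the corepressor CTBP, and KLF9, KLF10 and KLF13 recruit SIN3A. In smooth muscle cells KLF4 opposes the myocardin and SRF programme and so restrains contractile genes. TBX2 is a transcription factor that mostly represses its target genes.

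Between 66.4% and 72.7% of probes were well above background in the 4 extracts. The limma test, with an adjusted p under 0.05, called 135 of the 21097 genes (0.64%), 76 higher and 59 lower in Tbx2-GOF. A difference of 1.5-fold or more, with the same sign on each array, was seen in 289 genes (1.37%). The Tbx2 probe gave log2 ratios of Tbx2-GOF over control of 0.04 and 0.56 on arrays 1 and 2 (mean 0.30 ± 0.37, SD, n = 2 arrays; limma adjusted p = 0.711). Whether that probe lies in the part of Tbx2 carried by the Hprt allele is not stated in these sources, so it checks nothing about the labels. Tbx18 was at -0.31 and -0.59 (adjusted p = 0.266). Tbx3 had a mean of 0.18 (adjusted p = 0.925). In bulk tissue, fewer cells of a type and less RNA per cell cannot be told apart.

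Klf4 stood apart from the other 9 genes. Its level, as a normalized log2 intensity of its probe, was 13.08 in the control extract and 12.08 in the Tbx2-GOF extract of array 1, and 13.87 and 11.92 in those of array 2. Both Tbx2-GOF extracts lay below both control extracts. How many of all genes separate in this way was not counted. Here and for the genes below, such separation is therefore a description only. The log2 ratio was -0.996 on array 1 and -1.95 on array 2, a mean of -1.47 ± 0.68 (SD, n = 2 arrays), or 2.78-fold lower in Tbx2-GOF. This was the 21st lowest mean among the 21097 genes. The probe lies on chromosome 4 (mm9, 55540167 to 55540226) and was well above background in all 4 extracts.

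The arrays differed for Klf4 mainly in the control extract. The Klf4 level in the 2 Tbx2-GOF extracts differed by 0.16 (array 2 minus array 1, -0.16), whereas the control extracts differed by 0.80, more than in 96.9% of genes. The median absolute difference over all genes was 0.10 between the Tbx2-GOF extracts and 0.19 between the control extracts. The control extract was green on array 1 and red on array 2, so extract, array and dye cannot be told apart here.

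**Figure D1:**
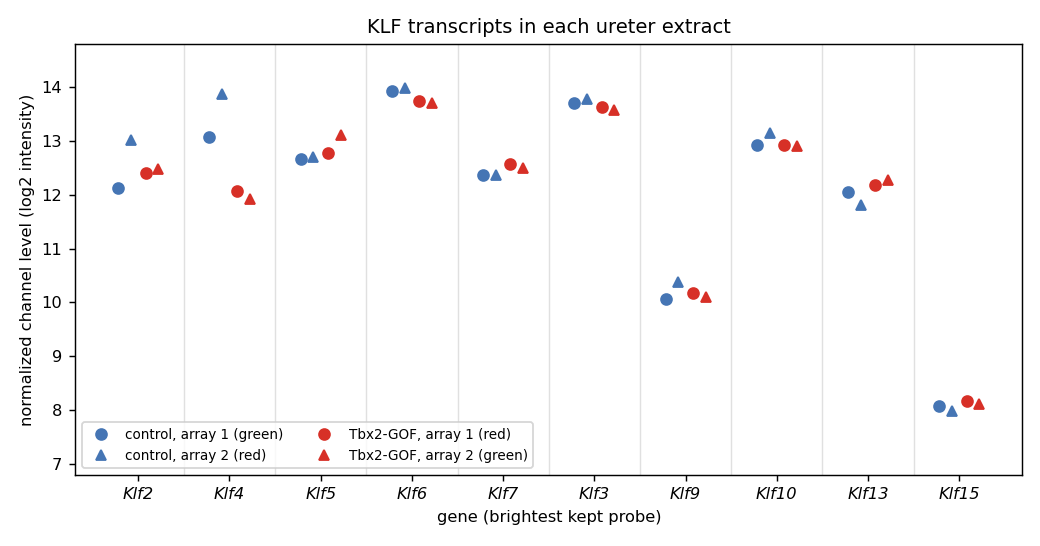
Normalized channel level (log2 intensity, vertical axis) of the 10 KLF genes in the 4 ureter extracts, blue for control and red for Tbx2-GOF, circles for array 1 and triangles for array 2. Levels are comparable within a gene only. Klf4 lies at 13.08 and 13.87 in control and at 12.08 and 11.92 in Tbx2-GOF.

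Klf4 was the 1 of 10 KLF genes past limma's threshold, and the 1 of 10 at least 1.5-fold apart on both arrays, against 0.64% and 1.37% of all genes (0.28% and 0.545% lower in Tbx2-GOF, 0.36% and 0.825% higher). Since Klf4 was chosen from this same comparison, nothing is read from these counts. Under 4 other settings (offset 0, median centring, Agilent's processed signals, the deposited value table) the call was lost, leaving 0 KLF genes called. In these 4 settings the mean ratio of Klf4 lay between -1.50 and -1.48.

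The promoter of Klf4, the gene farthest down, and that of Klf13, the gene with the highest mean ratio, are shown because the misexpressed gene encodes a T-box factor. They are the 250 bases upstream of the RefSeq gene start on GRCm38.p6, both on the minus strand and printed 5′ to 3′ along the gene, at chr4:55532476-55532725 and chr7:63938916-63939165. Capitals mark the motifs searched for on both strands: GTGTGA (the core of a T-box site), CACCC (the KLF box) and GGGCGG (the GC box).
Klf4: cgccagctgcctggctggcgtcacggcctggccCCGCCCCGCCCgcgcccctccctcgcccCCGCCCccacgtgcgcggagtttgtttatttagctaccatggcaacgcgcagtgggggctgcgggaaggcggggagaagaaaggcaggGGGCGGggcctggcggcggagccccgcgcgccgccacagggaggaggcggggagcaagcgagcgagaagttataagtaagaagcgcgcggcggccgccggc
Klf13: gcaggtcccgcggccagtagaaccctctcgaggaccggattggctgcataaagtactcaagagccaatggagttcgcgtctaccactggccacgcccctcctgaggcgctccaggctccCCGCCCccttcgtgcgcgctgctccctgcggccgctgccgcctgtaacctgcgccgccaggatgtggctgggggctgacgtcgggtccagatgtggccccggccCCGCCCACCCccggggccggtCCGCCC
The Klf4 window held 4 GC boxes and neither of the other motifs. The Klf13 window held 3 GC boxes, 1 of which shares its last base with the 1 CACCC box, and no T-box core. Among the 8 KLF genes matched in the RefSeq promoter table, all but Klf5 and Klf10, GTGTGA was found in 0, CACCC in 6 and GGGCGG in 7. Of the 32851 promoters in that table the same 250 bases held GTGTGA in 12.3%, CACCC in 52% and GGGCGG in 32.7%. The G and C content of the KLF windows was 59.2% to 78.4%, against a median of 52.4% over all promoters. A match or its absence is a property of these letters in this window.

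Among the other activators, Klf2, a factor that endothelial cells raise under blood flow, did not hold a direction. Its level was 12.13 in control and 12.40 in Tbx2-GOF on array 1, and 13.02 and 12.47 on array 2. The Tbx2-GOF extracts thus lay between the control extracts. The log2 ratio was 0.27 on array 1 and -0.55 on array 2 (mean -0.14 ± 0.58, n = 2). As for Klf4, the control extract of array 2 was the high one: the control levels differed by 0.89, more than in 97.8% of genes, and the Tbx2-GOF levels by 0.07. On both arrays the Klf2 spot was brighter in the red channel. The part of the dye in the Klf2 values was not tested.

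Endothelial markers were read beside Klf2. Of 12 listed genes 11 were tested (Erg did not pass the filter on dim probes), and 0 passed limma's test. In Tbx2-GOF 10 of the 11 were higher on both arrays, beside 26.1% of all genes. The list median was 0.29, with 0.40 on array 1 and 0.13 on array 2, against -0.00 over all genes. The summed intensity of the list was 41721 and 48418 in the control extracts and 54995 and 56433 in the Tbx2-GOF extracts. Its largest value was that of Thbd, thrombomodulin, a gene that KLF2 and KLF4 are known to activate in endothelium, at 0.63 and 0.77 (mean 0.70, limma adjusted p = 0.0797). The part of endothelial cell content in the Klf2 and Klf4 values was not tested.

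Klf5, which is needed for urothelial maturation in the bladder and is made in many epithelia, was higher in Tbx2-GOF on both arrays. Its levels were 12.67 in control and 12.78 in Tbx2-GOF on array 1, and 12.70 and 13.10 on array 2. Both Tbx2-GOF extracts lay above both control extracts, with log2 ratios of 0.11 and 0.40 (mean 0.26 ± 0.20, n = 2, 1.19-fold). Its probe spans 9733 bases of chromosome 14 (mm9, 99702656 to 99712388) for a length of 60 bases, so it joins separate exons and detects spliced RNA.

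Epithelial and urothelial markers were read beside Klf5. Of its 19 genes 18 were tested (Krt4 did not pass the filter), with a median of 0.01. Of these, 1 fell, 0 rose and 17 did not pass. On both arrays 6 were higher and 5 lower, beside 26.1% and 25.1% of all genes. Upk3a, a uroplakin of the urothelial plaque, fell by 0.86 on the log2 scale (SD 0.01, limma adjusted p = 0.0450). Its levels overlapped between genotypes, at 8.22 and 9.76 in control and at 7.37 and 8.90 in Tbx2-GOF on arrays 1 and 2. Upk2, another uroplakin, named after its values were seen, went the other way, at 1.05 and 0.62 (mean 0.84, adjusted p = 0.0715). The summed intensity was 75541 and 83534 in control and 74235 and 84661 in Tbx2-GOF, so the extracts overlapped. The part of epithelial content in the Klf5 values was not tested.

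Klf6 and Klf7 differed less between extracts. Klf6, an immediate early gene of injured tissue, was at 13.93 and 13.99 in control and at 13.74 and 13.70 in Tbx2-GOF. Both Tbx2-GOF extracts were below both controls, and the log2 ratios were -0.20 and -0.29 (mean -0.24 ± 0.07, n = 2, 1.18-fold lower). Klf7, which supports survival of sensory and sympathetic neurons, was at 12.36 and 12.37 in control and at 12.58 and 12.49 in Tbx2-GOF. Its ratios were 0.22 and 0.12 (mean 0.17 ± 0.07, n = 2), again without overlap.

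Neural and Schwann cell markers were read beside Klf7. All 12 listed genes were higher in Tbx2-GOF on both arrays, beside 26.1% of all genes, and 2 passed limma's test. The list median was 0.99, from 0.50 on array 1 to 1.73 on array 2. Fabp7, made in glial precursors, rose by 1.57 (adjusted p = 0.0190), and Th, tyrosine hydroxylase of sympathetic neurons, rose by 1.34 (adjusted p = 0.0431). The summed intensity of the list was 63945 and 37650 in control and 99314 and 103129 in Tbx2-GOF. Klf7, unlike the list, was not farther up on array 2. The part of neural tissue in the Klf7 values was not tested.

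Klf3, the repressor of this set that works through CTBP, was at 13.71 and 13.77 in control and at 13.63 and 13.57 in Tbx2-GOF. Its log2 ratios were -0.08 and -0.20 (mean -0.14 ± 0.09, n = 2). The Tbx2-GOF extracts lay below the controls, by less than 0.3 on the log2 scale.

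Of the SIN3A-binding genes, Klf9, a glucocorticoid and thyroid hormone target, was at 10.06 and 10.38 in control and at 10.17 and 10.10 in Tbx2-GOF. The groups overlapped and the ratios had opposite signs, 0.11 and -0.28 (mean -0.09 ± 0.28, n = 2). A second Klf9 probe, on chromosome 19 (mm9, 23243231 to 23243290), was not well above background in any of the 4 extracts. Klf10, an early TGF-beta response gene, was at 12.93 and 13.15 in control and at 12.92 and 12.91 in Tbx2-GOF. Both Tbx2-GOF values were lower than both controls, by 0.01 on array 1 and 0.24 on array 2 (mean log2 ratio -0.13 ± 0.16, n = 2).

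Klf13, which acts in heart and T cells, had the highest mean ratio of the set. Its brighter probe was at 12.05 and 11.81 in control and at 12.18 and 12.27 in Tbx2-GOF. The groups did not overlap, and the log2 ratios were 0.14 and 0.46 (mean 0.30 ± 0.23, n = 2, 1.23-fold). A dimmer probe of the same gene gave 0.84 on array 1 and 0.08 on array 2 (mean 0.46 ± 0.54). The 2 probes had the same sign on both arrays but ranked the arrays in opposite order.

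The brighter Klf13 probe and the Klf5 probe are shown because they are alike. Of 66 pairs among the 12 KLF probes, aligned without gaps over at least 30 bases, this pair had the highest identity, 29 of 40 bases (72.5%). The next in order had 54.8%. Capitals mark the identical bases of the overlap, 5′ to 3′.
Klf13: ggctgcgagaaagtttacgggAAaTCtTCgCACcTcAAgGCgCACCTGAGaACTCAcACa
Klf5: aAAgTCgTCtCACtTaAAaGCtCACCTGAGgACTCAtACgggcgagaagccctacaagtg
Klf5 and Klf13 were also the KLF genes with the highest mean ratios, 0.26 and 0.30, and in both the ratio was larger on array 2. Probes were compared with probes and not with transcripts, so cross-hybridisation of any KLF probe was not tested. The dimmer Klf13 probe, on chromosome 7 (mm9, 71032482 to 71032541), is outside this pair.

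Klf15, a metabolic regulator of liver, muscle and kidney, had the dimmest kept probe of the set, at the 21.4th percentile of kept probes in mean intensity. Its level was 8.07 and 7.98 in control and 8.17 and 8.12 in Tbx2-GOF. The log2 ratios were 0.10 and 0.14 (mean 0.12 ± 0.03, n = 2), and the groups did not overlap. With processed signals the mean was 0.15.

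**Figure D2:**
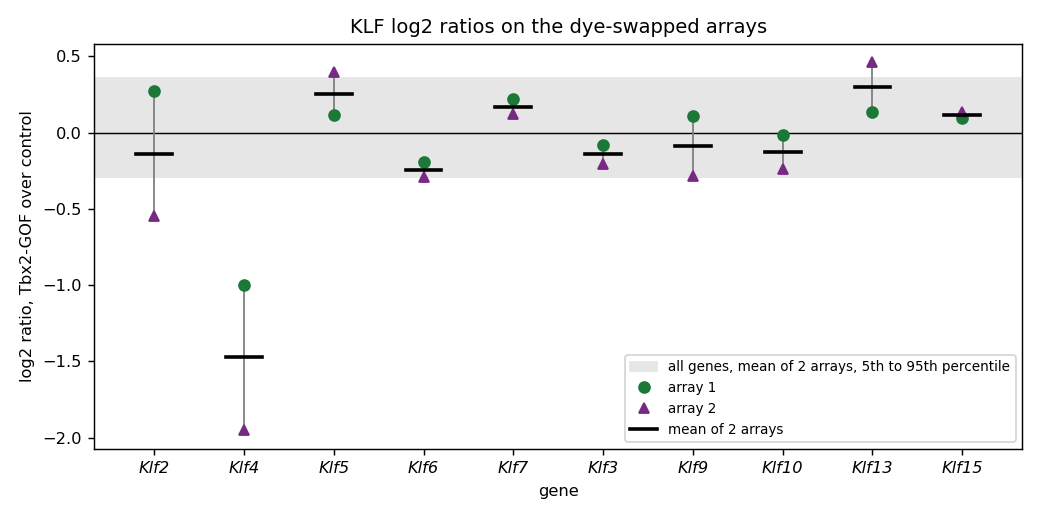
Log2 ratio of Tbx2-GOF over control (vertical axis) of the 10 KLF genes on array 1 (circles) and array 2 (triangles), with their mean as a bar. The grey band is the 5th to 95th percentile of mean ratios over all genes, -0.29 to 0.36. Klf4 alone lies outside the band by its mean, at -1.47.

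Over the set, 4 genes were lower on both arrays (Klf3, Klf4, Klf6 and Klf10), 4 were higher on both (Klf5, Klf7, Klf13 and Klf15) and 2 had opposite signs (Klf2 and Klf9). Of all genes 25.1%, 26.1% and 48.8% fell in these classes. The median ratio of the 10 genes was -0.11, with 0.10 on array 1 and -0.22 on array 2, against -0.00 over all genes. Apart from Klf4, the 9 genes lay within 0.5 of 0, as did 95.5% of all genes. The KLF genes therefore did not share a direction, and Klf4 was the member that differed by more than 1.5-fold.

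Of the 7 further KLF genes, 6 were tested and 0 passed limma's test over all genes. Klf14, an imprinted gene, had log2 ratios of -0.06 and -1.06 (mean -0.56 ± 0.71; adjusted p = 0.476). Klf1, the erythroid master regulator, was at -0.37 and -0.72 (mean -0.54 ± 0.25; adjusted p = 0.192). Klf12 was at -0.22, Klf8 at -0.12, Klf11 at 0.05 and Klf16 at 0.05, and the median of the 6 was -0.17. Klf17 was not well above background in enough extracts to be tested.

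Erythroid markers were read beside Klf1. Of 10 listed genes 9 were tested, with 0 past limma's test and a median of -0.32. On both arrays 6 were lower and 1 higher, beside 25.1% and 26.1% of all genes. The summed intensity of the list was 527132 and 604433 in control and 548507 and 495282 in Tbx2-GOF, so the extracts overlapped. The part of blood content in the Klf1 value was not tested.

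The related SP genes, whose proteins bind the same GC boxes, had 7 of 9 members tested and 0 past the test, with a median of 0.07. Sp5, a WNT-induced repressor, was the highest at 0.90 and 0.46 (mean 0.68 ± 0.32; limma adjusted p = 0.136), and Sp3, a broadly made factor, the lowest at -0.19 and -0.65 (mean -0.42 ± 0.33; adjusted p = 0.396). Sp1, Sp2, Sp4, Sp6 and Sp7 were at -0.07, 0.16, -0.01, 0.29 and 0.07. Sp8 and Sp9 did not pass the filter on dim probes.

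**Figure D3:**
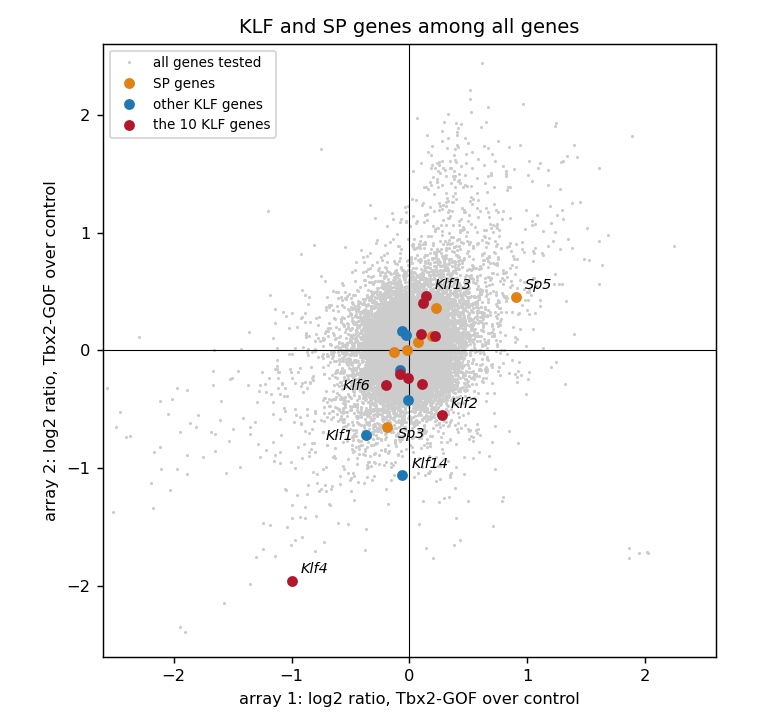
Log2 ratio of Tbx2-GOF over control on array 1 (horizontal axis) and array 2 (vertical axis) for all genes (grey), the 10 KLF genes (red), the other KLF genes (blue) and SP genes (orange). Klf4 lies far out in the lower left at -0.996 and -1.95, while Klf2 lies in the lower right at 0.27 and -0.55; 6 genes fall outside the axes.

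Smooth muscle markers were read beside Klf4. They are a cell type list and not a list of known KLF4 targets. Of 13 smooth muscle genes 12 were tested (Lmod1 did not pass the filter); 1 rose, 0 fell and 11 did not pass, and the median was 0.05. Synpo2, an actin-binding protein, rose by 0.95 ± 0.23 (adjusted p = 0.0449), but its other kept probes were at 0.04 and 0.31. The contractile genes Acta2, Tagln, Myh11 and Cnn1, picked as textbook examples after the values were seen, were at -0.02, 0.25, 0.12 and -0.35, and none passed (adjusted p = 0.9998, 0.766, 0.974 and 0.655). Cnn1 was at -0.03 on array 1 and -0.67 on array 2. Actg2, the lowest of the list, was at 0.08 and -0.91 (mean -0.41, limma adjusted p = 0.710). On both arrays 5 of the 12 genes were higher and 2 lower, beside 26.1% and 25.1% of all genes. Summed intensity was 132172 and 160868 in control and 137983 and 174545 in Tbx2-GOF, overlapping.

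Of the 9 regulators of smooth muscle genes, 7 were tested and 0 passed, with a median of 0.08. Myocd, which encodes the cofactor KLF4 opposes, did not pass the filter on dim probes, and neither did Foxo4. Among 10 KLF partner and cell cycle genes 0 passed and the median was 0.06, with Ccnd1, cyclin D1, at 0.43 (adjusted p = 0.422).

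Several KLF genes are immediate early genes, so markers of acute stress were read with them. Of 17 listed genes 14 were tested and 0 passed, with a median of 0.14. On both arrays 6 were higher and 1 lower, beside 26.1% and 25.1% of all genes. Fosb was farthest at -1.02 and -0.16 (mean -0.59; limma adjusted p = 0.356). Summed intensity was 30805 and 29531 in control and 35153 and 34358 in Tbx2-GOF. Between the control extracts the immediate early genes had a median difference of -0.04 (array 2 minus array 1), beside 0.80 for Klf4 and 0.89 for Klf2. The same median in the other lists ranged from -1.06 (neural and Schwann cell) to 0.62 (macrophage). It was -0.39 for ureteric mesenchyme and 0.44 for liver. The part of acute stress in the KLF values was not tested.

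Hormone and TGF-beta response genes, read beside Klf9 and Klf10, had medians of 0.03 each. Of 7 glucocorticoid response genes 0 passed, with Nr3c1, the glucocorticoid receptor gene, at -0.34 (limma adjusted p = 0.492). Of 9 TGF-beta response genes 0 passed, with Tgfb1 at 0.37 (adjusted p = 0.452).

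**Figure D4:**
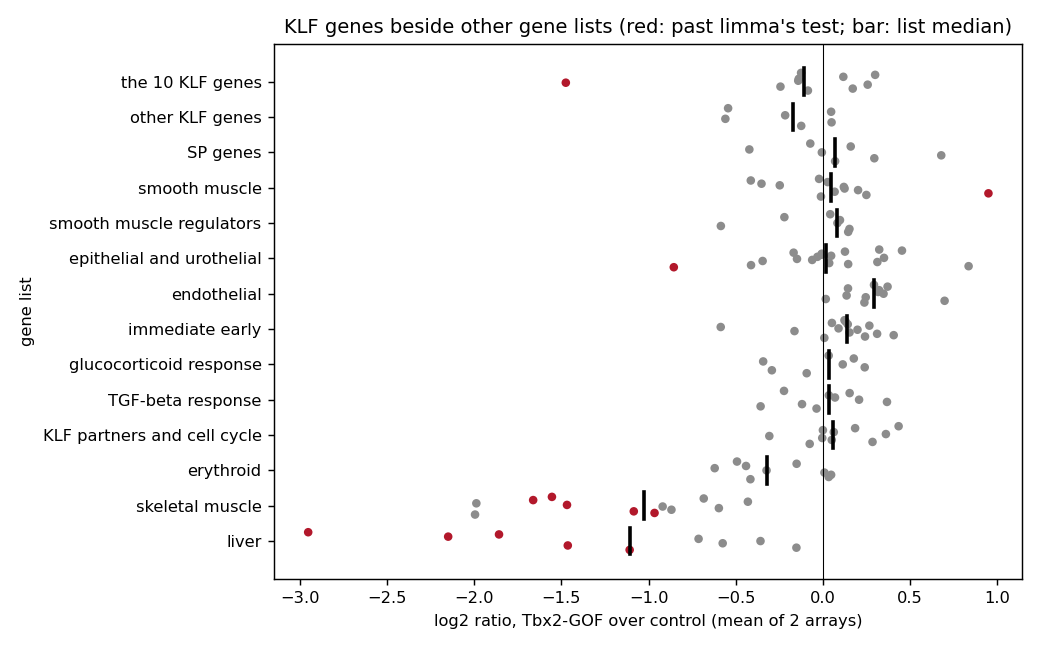
Mean log2 ratio of Tbx2-GOF over control (horizontal axis) of each tested gene in 14 lists (rows), with the list median as a bar and genes past limma's test in red. The 10 KLF genes have a median of -0.11, smooth muscle 0.05, skeletal muscle -1.03 and liver -1.11. Not drawn are the neural and Schwann cell (median 0.99), nephron (0.54), T-box (0.18), macrophage (0.10), adrenal and gonad (-0.01) and ureteric mesenchyme (-0.17) lists.

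Markers of other tissues differed between the same extracts. All 12 skeletal muscle genes were lower on both arrays, beside 25.1% of all genes. Of these 12 genes 5 fell, and the list median was -1.03 (array 1: -1.58, array 2: -0.84). Ttn was farthest at -1.99 (limma adjusted p = 0.0563). Chrna1, Acta1, Myh8, Tnni2 and Tnnt3 fell, with means from -1.66 to -0.97. Of 9 tested liver genes 8 were lower on both arrays and 5 fell, with a median of -1.11 (-0.89 and -1.33), led by Afp, alpha-fetoprotein, at -2.95 (adjusted p = 0.00241), then Alb, Ahsg, Serpina1a and Ttr. Ahsg and Ttr were well above background in 1 of the 2 Tbx2-GOF extracts and passed the filter on dim probes through the control. The summed skeletal muscle intensity was 60976 and 69363 in control and 21825 and 46185 in Tbx2-GOF, and the liver sum 8874 and 11487 against 6143 and 6328. Klf4, like the medians of the liver, erythroid (-0.21 and -0.37) and other KLF (-0.06 and -0.30) lists, was farther down on array 2. The medians of the skeletal muscle and ureteric mesenchyme (-0.36 and -0.01) lists were farther down on array 1. The part of other tissues in the Klf4 value was not tested.

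Further tissues were less uniform. Of 10 nephron genes 2 rose, Six2 at 1.85 and Pax8 at 0.95 (adjusted p = 0.00624 and 0.0398), and the median was 0.54. On both arrays 7 of the 10 were higher and 1 lower, beside 26.1% and 25.1% of all genes. Of 8 tested adrenal and gonad genes Akr1b7 rose (3.27, adjusted p = 0.00516) and Lhx9 fell (-0.91, adjusted p = 0.0398), although Lhx9 was well above background in 1 of the 2 Tbx2-GOF extracts and passed the filter through the control. Of 10 macrophage genes 0 passed and the median was 0.10, with Aif1 at 0.26 (adjusted p = 0.763). Of 9 genes of the ureteric mesenchyme, all of them detected, 0 passed and the median was -0.17, with Aldh1a2 at 0.71 (adjusted p = 0.101).

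The 5 genes whose pair of ratios on the 2 arrays lay nearest to that of Klf4 were Ccn3, Rasgrf1, Serpina1c, Gm8893 and Epyc, at Euclidean distances of 0.26, 0.31, 0.32, 0.34 and 0.36 on the log2 scale. Ccn3, a matricellular CCN protein gene, was at -1.14 and -1.74, and Epyc, a small leucine-rich proteoglycan gene, at -1.35 and -1.98. Rasgrf1, a Ras exchange factor gene, was at -1.01 and -1.65, the liver serpin gene Serpina1c at -0.80 and -1.70, and Gm8893 at -0.97 and -1.61. The likeness is over 2 arrays.

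**Figure D5:**
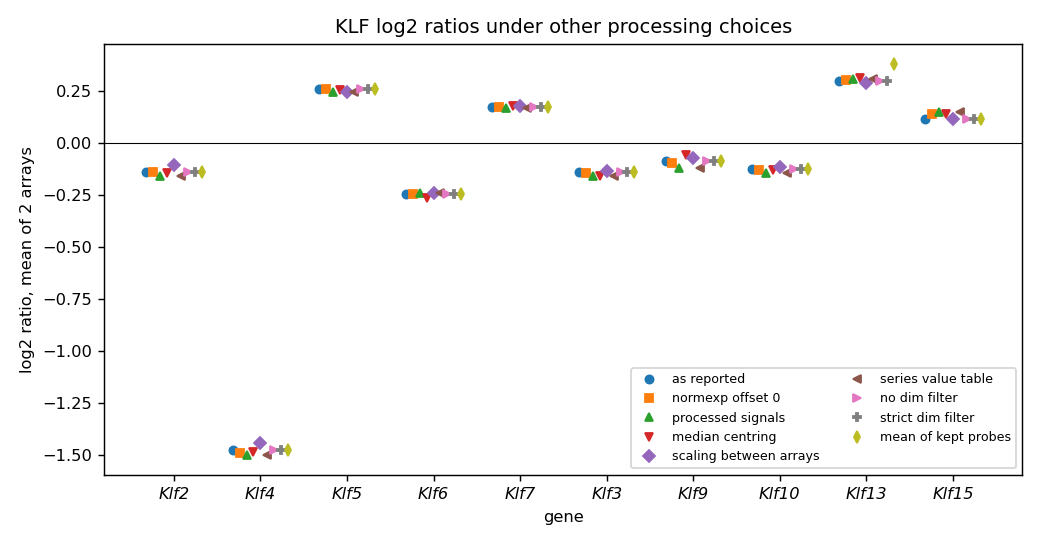
Mean log2 ratio of Tbx2-GOF over control (vertical axis) of the 10 KLF genes as reported and under 8 other processing choices (symbols). No gene changed sign in these settings, and Klf4 ranged from -1.50 to -1.44.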

How the data were processed

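The deposited spot and background intensity values were read by Agilent Feature Extraction (version 10.7.3.1 in the submitters' processing notes); its processed intensity values were background-subtracted, detrended and dye-normalized, and the deposited log ratio is the log10 of the red to green signal. The software's flags are 0 or 1. The deposited value table holds a signed fold score of unstated scale and direction. Turned by dye, the software's log10 ratio was compared with it on 25334 probes, all well above background in all 4 extracts. They matched within 0.01 for 99.6% of these probes on each array. The median of the value table was 1 on both. Here limma 3.58.1 (R 4.3.3) applied normexp with offset 50 and loess (span 0.3) within arrays; control and flagged spots had weight 0. Ratios were turned to Tbx2-GOF over control. Channel levels came from Aquantile normalization and are open to dye bias. A probe was kept if 1 genotype exceeded background clearly on each array (26471 of 39429), and the brightest kept probe stood for a gene. The fit (lmFit, eBayes, two-sided, Benjamini-Hochberg at 0.05) used both arrays without covariates. Symbols came from RefSeq GRCm38.p6 accessions (26412 probes); probe positions are mm9. Acta2, Actg2, Tagln, Myh11, Cnn1 and Upk2 were added after their values were seen. The other genes named outside the KLF set were those past the test and the farthest from 0 in each list. Also named were all tested KLF, SP and T-box genes, and the 5 nearest to Klf4. Some genes that this rule names are not reported here. The fit was tested on simulated data. The members and lists were chosen with earlier results of these data known. Alternatives are in the closing section.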

Additional observations from a re-analysis of the deposited data

How the results depend on the processing

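The means of the 10 KLF genes kept their sign under all 8 alternatives that used both arrays. The count of KLF genes past limma's threshold did not keep. It was 1 as reported, with scaling between arrays and with the mean of a gene's probes. It was also 1 with no filter on dim probes and with a stricter filter that asked for both genotypes above background. With offset 0, median centring, processed signals and the series value table it was 0. Over all genes, median centring, processed signals and the series value table called 0 genes in limma (0 higher, 0 lower, 0 in the other gene lists; 1219, 2064 and 2060 at an unadjusted p under 0.05), offset 0 called 109, scaling 313 (197 higher, 116 lower, 29 in the other lists), no dim filter 276 (167 and 109) and the mean of probes 211 (124 higher). At least 1.5-fold apart on both arrays were 543 genes with processed signals and 474 with the series value table, beside 289; on 1 array alone the count was 752 to 1230. The cause was not tested. With either array left out Klf4 was the 1 KLF gene past 1.5-fold, at -0.996 or -1.95. No test exists with 1 array. No paired analysis was possible because the labels give 1 group of 2 arrays, so no groups share replicate numbers; the genotypes are paired within each array's ratio, which the reported fit already uses. The number of arrays limits precision.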
